A study of Trichoderma reesei with 11 samples.

Results

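Loss of the kinase TR_57513 in darkness was studied in Trichoderma reesei, a filamentous fungus used for its secreted cellulases. The comparison sets the 3 libraries of the deletion strain grown in constant darkness against the 2 dark libraries of its parent. They were picked by their sample labels and are 5 of the 11 libraries of the series. The deletion strain carried 2 deletions in the QM6a background, TR_57513 and mus53, and the parent carried the mus53 deletion alone, so that both strains lacked mus53. The other 6 libraries came from the same strains in constant light, 3 each, and entered the model fit. All mycelium was grown on cellulose in minimal medium at 28 °C for 96 h. The labels do not say how many transformants of the deletion strain were used, nor whether replicates were separate cultures, and the spread behind the p-values may thus be a technical one.

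TR_57513 is named in the series title as a MAPKKK of the HOG pathway. In such a cascade a MAPKKK phosphorylates a MAPKK, which activates the MAP kinase. In budding yeast the pathway is known for the response to high osmolarity through the MAP kinase Hog1, and in Aspergillus nidulans the corresponding kinase also receives light signals from phytochrome. Mus53 belongs to the DNA ligase complex of non-homologous end joining in Neurospora crassa, and its removal favours targeted gene replacement.

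Read counts were given for 10879 gene IDs, which the file does not pair with names, and none matched the gene table at hand. Pathway genes, cellulases and markers of mycelium could therefore not be located, and the loss of TR_57513 was not checked by its ID. Of the IDs, 10876 carry a series letter, A to G, a serial number and an end letter, W or C. Names of this form in budding yeast give the chromosome, the order along it and the strand. Whether they do so here is not stated in the sources used. After removal of IDs with few counts, 9040 were tested.

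The dark libraries held 13790024 to 18278047 counts in the deletion strain and 15175573 to 16308391 in the parent. Deletion replicate 1 stood apart. It correlated with deletion replicates 2 and 3 at r = 0.958 and 0.947 across gene IDs, on log2(CPM + 1), where these correlated with each other at 0.992 and the parent libraries at 0.978 (CPM is the count scaled to a common TMM-adjusted library total; IDs are not independent replicates). For 940 IDs deletion replicate 1 lay over 2-fold from the mean of the other 2 deletion libraries, against 209 IDs for replicate 2 and 348 for replicate 3. The parent libraries lay over 2-fold from each other for 582 IDs, with parent replicate 2 above for 483 and below for 99. The first principal component of the 5 libraries, with 54.4% of the variance, separated the strains. The second, with 33.4%, placed deletion replicate 1 at 44.7 and parent replicate 2 at 12.8, and deletion replicates 2 and 3 and parent replicate 1 at -15.7, -24.7 and -17.1.

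In darkness, 655 gene IDs rose and 449 fell in the deletion strain, together 1104 or 12.2% of those tested (edgeR quasi-likelihood test, Benjamini-Hochberg adjusted p under 0.05, all 11 libraries in the fit). The rising IDs were 7.25% and the falling IDs 4.97% of all tested. With upper-quartile scaling 779 rose and 331 fell. Among the called IDs the increases were larger than the decreases by fold change. The median log2 fold change was 1.35 for rising IDs and -0.82 for falling IDs. At least 4-fold, 211 IDs rose and 68 fell, and at least 16-fold, 54 rose and 14 fell. Over all tested IDs the median log2 fold change was 0.01. Rising and falling IDs also differed in level, and fold changes were not compared at matched levels.

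Rising IDs had lower median levels than falling IDs in both strains. Their median was 31.0 CPM in the deletion strain and 11.9 CPM in the parent, while falling IDs had medians of 49.7 CPM in the deletion strain and 95.8 CPM in the parent. Together the rising IDs took 6.81%, 7.30% and 7.46% of all counts in the deletion libraries and 3.21% and 3.16% in the parent libraries. The falling IDs took 5.05%, 6.47% and 6.36% in the deletion libraries and 11.6% and 9.93% in the parent libraries. These medians and sums describe IDs that were selected for the difference. Among the 100 most abundant IDs in darkness, each with a mean of at least 1239 CPM, 3 rose and 10 fell. Over all tested IDs the shares were 7.25% and 4.97%. Of the 100, none rose and 5 fell at least 2-fold, beside 4.76% and 2.11% of all tested IDs.

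**Figure D1:**
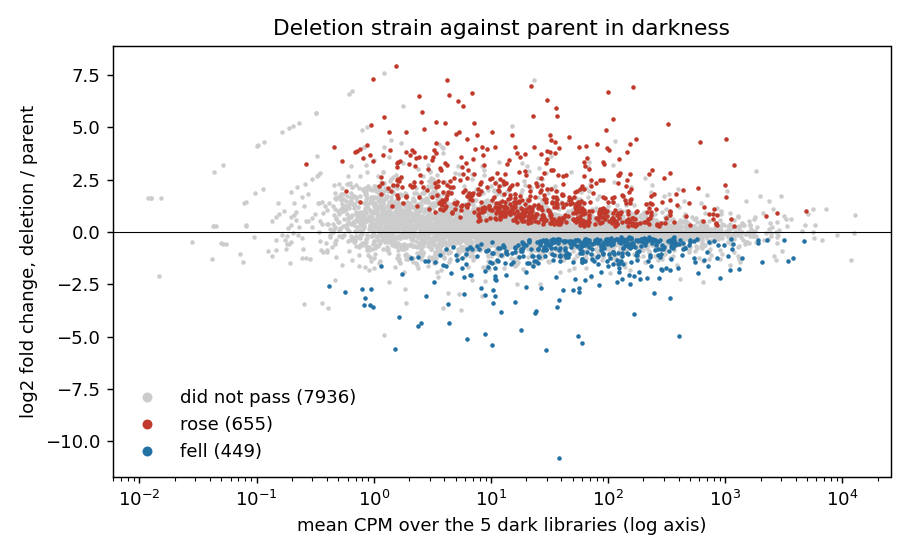
Log2 fold change of the deletion strain over the parent in darkness (vertical axis) against the mean CPM over the 5 dark libraries (log axis) for the 9040 tested gene IDs. Of the 655 rising IDs 211 lie at 4-fold or more and of the 449 falling IDs 68 do, and the isolated point at the bottom is the falling TrA1495C at a log2 fold change of -10.79.

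The number of calls depended on the libraries. The fit of the 5 dark libraries alone called 238 IDs, 2.64% of 9022, with 165 (1.83%) rising and 73 (0.809%) falling. Of the 655 rising and 449 falling IDs, 155 and 71 passed in the same direction in that fit. Without deletion replicate 1, the total was 1426, of which 966 were among the 1104. Leaving out parent replicate 1 or 2 gave 389 or 577 calls, leaving out deletion replicate 2 or 3 gave 695 or 697, and leaving out the second deletion library in light gave 702. The IDs that passed in the same direction whichever of the 5 dark libraries was left out numbered 245, of which 140 rose and 105 fell. Of these, 125 rose and 78 fell at least 2-fold.

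The largest shifts in level among the IDs that passed in both fits at 2-fold or more belonged to TrD0022W and TrD0140W, which rose, and TrB1256C and TrG0150C, which fell. Only IDs whose strain ranges in darkness did not overlap were eligible, so the separation of the strains follows from the choice. TrD0022W had 1667, 1642 and 2182 CPM in the deletion libraries and 185 and 216 CPM in the parent libraries. Its lowest deletion library lay far above the higher parent library. The log2 fold change was 3.19 (SE 0.71, edgeR adjusted p = 0.0232). In light its levels were 403 ± 152 CPM in the deletion strain and 301 ± 204 CPM in the parent (SD, n = 3 each). The call was lost in 5 of 22 alternatives, including the omission of either parent library or of deletion replicate 3 in darkness, with adjusted p up to 0.176.

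TrD0140W had 1257, 1974 and 1658 CPM in the deletion libraries and 116 and 35.3 CPM in the parent libraries. The strains were far apart, but the parent libraries themselves differed more than 3-fold. The log2 fold change was 4.43 (SE 1.09, edgeR adjusted p = 0.0327). In light the deletion strain also had the higher mean, at 3944 ± 1139 CPM against 779 ± 733 CPM in the parent (SD, n = 3 each), which did not pass (edgeR adjusted p = 0.0673). The dark call was lost in 10 of 22 alternatives, with adjusted p up to 0.162. Of the dark libraries, only the omission of deletion replicate 1 left it in place.

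TrB1256C had 534, 508 and 591 CPM in the deletion libraries and 1737 and 2070 CPM in the parent libraries. The deletion libraries lay close together and below both parent libraries. The log2 fold change was -1.81 (SE 0.23, edgeR adjusted p = 0.00151). TrB1256C also fell in light, to 1372 ± 77.5 CPM in the deletion strain against 6393 ± 2158 CPM in the parent (SD, n = 3 each, edgeR adjusted p = 0.000149).

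TrG0150C had 337, 437 and 398 CPM in the deletion libraries and 1208 and 1175 CPM in the parent libraries. Each group was tight, and the lack of overlap follows from the choice of IDs. The log2 fold change was -1.61 (SE 0.22, edgeR adjusted p = 0.00198). In light the levels overlapped, at 856 ± 198 CPM in the deletion strain and 993 ± 216 CPM in the parent (SD, n = 3 each). The effect differed between darkness and light (log2 difference -1.39, SE 0.29, edgeR adjusted p = 0.0166), except with parent replicate 1 in darkness left out or in the test against a 2-fold change, where that difference missed the threshold. For TrB1256C and TrG0150C the dark call was lost only in the test against a 2-fold change, among 22 alternatives each.

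**Figure D2:**
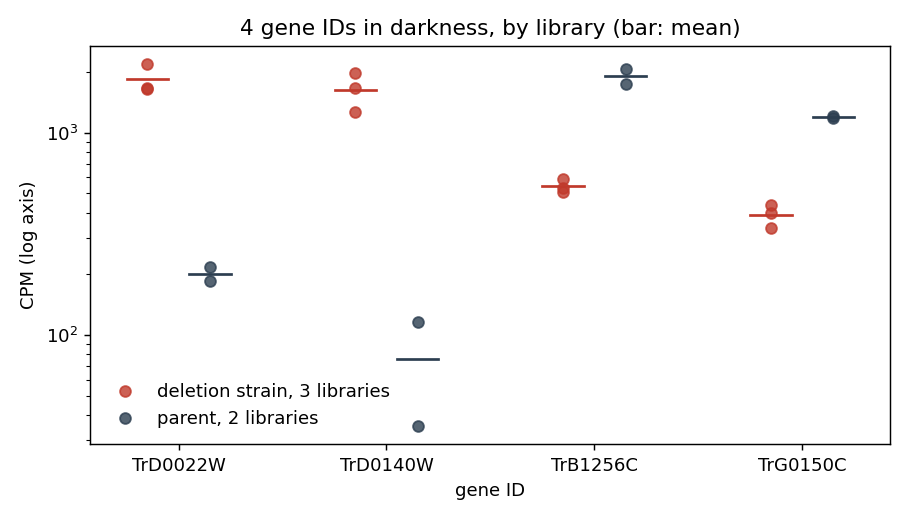
CPM (log axis) of 4 gene IDs in each dark library, deletion strain in red at the left and parent in dark blue at the right of each pair, with bars at the group means. For TrD0022W and TrD0140W all 3 deletion libraries lie above both parent libraries, and for TrB1256C and TrG0150C all 3 lie below. The IDs were picked among those whose strain ranges did not overlap.

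At 5 IDs, transcripts were nearly absent from 1 strain in darkness, with 3 counts or fewer over its libraries and at least 5 CPM on average in the other. TrA1495C was the only such ID that was nearly absent from the deletion strain. It had 2, 0 and 0 counts in the deletion libraries and 1234 and 1524 counts in the parent libraries, a parent-to-deletion ratio of 2173 (counting interval at 95%, 601 to 17954; edgeR adjusted p = 3.46e-05). In light it had 0 counts over the deletion libraries and 3650 over the parent libraries. No source used here says which gene this ID stands for.

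The other 4 were nearly absent from the parent and present in every deletion library. TrG1186W had 233, 145 and 145 counts in the deletion libraries and 2 and 1 in the parent libraries, a deletion-to-parent ratio of 111 (counting interval at 95%, 37.6 to 538; edgeR adjusted p = 0.000352). It was also on in light only in the deletion strain, with 60 counts against 0 in the parent. TrD1340C had 70, 142 and 103 counts in the deletion libraries and 1 and 0 in the parent libraries, a ratio of 200 (interval 35.6 to 7920, edgeR adjusted p = 0.000639). TrE0344C had 138, 143 and 118 counts in the deletion libraries and 3 and 0 in the parent libraries, a ratio of 84.4 (interval 28.7 to 411, edgeR adjusted p = 0.00884), and its call was lost with the replicate block (adjusted p = 0.107).

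TrD1423W had 232, 48 and 65 counts in the deletion libraries and 2 and 0 in the parent libraries, a ratio of 109 (interval 30.1 to 907, edgeR adjusted p = 0.0148). Deletion replicate 1 had the most counts for this ID, and the call was lost in 6 of 22 alternatives, among them the fit of the 5 dark libraries alone (adjusted p = 0.0777) and the omission of either parent library. In light these last 3 IDs were at or near the floor in both strains. TrD1340C had 9 counts in the deletion strain and 7 in the parent, TrD1423W had 1 and 0, and TrE0344C had 0 and 0.

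The same strain comparison in light asks whether the effect of the deletion was alike in the light libraries. These held 8020351 to 10184280 counts, fewer than any dark library, and their column names lie in a separate number range. Dependence on light therefore cannot be told apart from a difference between the 2 sets of libraries. The 2 comparisons share no library, although their spread comes from the same fit. Of the 655 IDs that rose in darkness, 262 (40%) also rose in light and 44 (6.72%) fell, where 13.9% and 13.1% of all tested IDs rose and fell in light. The shared IDs were 20.8% of those that rose in light. Of the 449 IDs that fell in darkness, 161 (35.9%) also fell in light, 13.6% of those that fell in light, and 26 (5.79%) rose. Of the 245 IDs that passed without any one dark library, 129 passed in the same direction in light and 10 in the opposite direction.

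A direct test of the difference passed for 194 of the rising IDs (29.6%) and 134 of the falling IDs (29.8%), where 10.8% of all tested IDs passed. These IDs were selected in part by the dark libraries, which also enter the difference, so shares above the background follow in part from the selection. Together these were 328 IDs. The number was 101 when the first dark parent library was omitted, 207 when the third dark deletion library was, and 190 when the second light parent library was. Omission of the light deletion libraries 1, 2 or 3 gave 192, 162 or 193. By group means, the deletion strain in darkness was at least 2-fold above each of the other 3 groups for 228 of the 655 rising IDs, and the parent in darkness was at least 2-fold below each of the others for 81 of them. Of the 449 falling IDs, the deletion strain in darkness was at least 2-fold below each of the others for 51, and the parent in darkness was at least 2-fold above each of the others for 71. Over all 9040 tested IDs, the deletion strain in darkness stood above the other groups in this way for 506 and below them for 84, and the parent in darkness stood above them for 170 and below them for 221. The IDs counted among the rising and falling ones were selected for a difference that this criterion also uses.

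**Figure D3:**
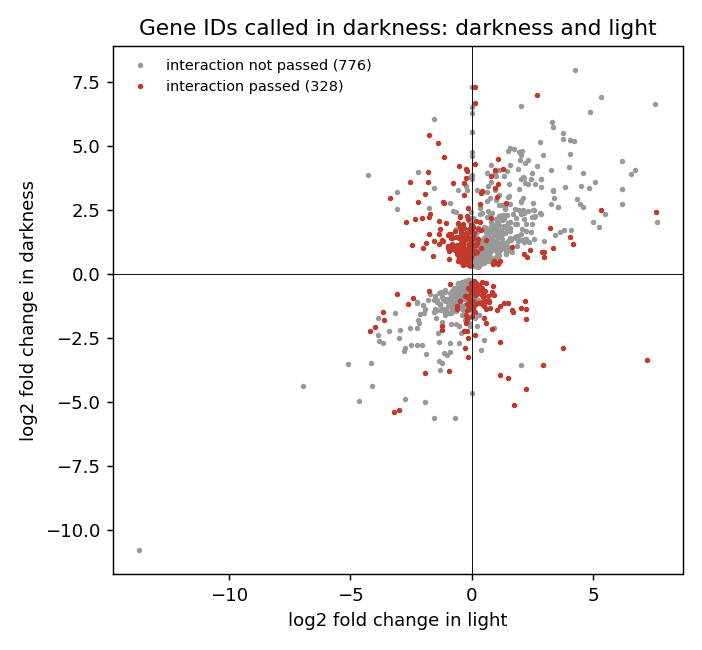
Log2 fold change of the deletion strain over the parent in darkness (vertical axis) against that in light (horizontal axis) for the 1104 gene IDs called in darkness. The 328 IDs whose effect differed between darkness and light, in red, spread along the vertical axis and into the quadrants of opposite sign.

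Among IDs called both in darkness and for the difference between darkness and light, with over 3 counts in every group and at least 5 CPM in darkness, TrG0823W and TrG0034W had the most positive differences. TrG0823W had 191, 144 and 210 CPM in the dark deletion libraries and 5.11 and 3.37 CPM in the dark parent libraries. In light it was below 1 CPM in all 6 libraries, with 4 counts over the deletion strain and 12 over the parent. The difference of the effects was 7.16 on the log2 scale (SE 0.96, edgeR adjusted p = 0.0028). TrG0034W had 87.4, 267 and 140 CPM in the dark deletion libraries and 2.14 and 1.03 CPM in the dark parent libraries. In light it stood at 3.89 ± 1.51 CPM in the deletion strain and 3.47 ± 1.36 CPM in the parent (SD, n = 3 each). Its difference was 6.52 (SE 0.86, edgeR adjusted p = 0.00273) and missed the threshold with voom (limma adjusted p = 0.052). For both IDs the dark deletion libraries were the only high ones. IDs at both extremes were picked for the size of the difference, so such patterns follow in part from the choice.

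TrE0180C and TrF0255C had the most negative differences among the same IDs, and here the dark parent libraries were the high ones. TrE0180C had 0.06, 0.69 and 0.53 CPM in the dark deletion libraries and 24.9 and 5.35 CPM in the dark parent libraries. In light it stood at 0.92 ± 0.18 CPM in the deletion strain and 0.27 ± 0.28 CPM in the parent (SD, n = 3 each). The light parent value rests on 7 counts, and the light effect did not pass (log2 fold change 1.73, edgeR adjusted p = 0.263). The difference was -6.87 (SE 1.35, edgeR adjusted p = 0.0133). It missed the threshold with voom, with the replicate block and with parent replicate 1 in darkness left out, at adjusted p up to 0.161, and its dark call (edgeR adjusted p = 0.00734) was lost in 3 of 22 alternatives. TrF0255C had 1.91, 3.14 and 15.4 CPM in the dark deletion libraries and 32.6 and 128 CPM in the dark parent libraries. In light it stood at 2.16 ± 0.39 CPM in the deletion strain and 0.27 ± 0.36 CPM in the parent (SD, n = 3 each). The light parent value of TrF0255C rests on 7 counts, and its light effect did not pass (log2 fold change 2.96, edgeR adjusted p = 0.159). Its difference was -6.54 (SE 1.60, edgeR adjusted p = 0.0335) and was lost in 10 of 21 alternatives, including the omission of parent replicate 2 or deletion replicate 2 in darkness and of 5 of the 6 light libraries. Its dark call (edgeR adjusted p = 0.0301) was lost in 6 of 22, among them the fit of the 5 dark libraries (adjusted p = 0.158).

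Most called IDs were not followed in the ID series by one that moved the same way, but the share that were lay above the share of all tested IDs. Of 537 rising IDs whose next ID was tested, the next ID also rose for 64 (11.9%), beside 7.25% of all tested IDs, and it fell for 22 (4.10%), beside 4.97%. Of 381 falling IDs, the next ID also fell for 53 (13.9%) and rose for 26 (6.82%). With parent replicate 1 in darkness left out, the share of rising IDs followed by a rising ID was 5.85%, beside 2.22% of all tested IDs in that fit. Allowing at most 1 uncalled ID between called ones, 16 runs held 3 or more rising IDs, 56 in all, and 12 runs held 3 or more falling IDs, 37 in all. With no gap allowed the runs numbered 7 and 5.

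The longest run lay at serial numbers 816 to 824 of the G series. All 8 tested IDs among these 9 rose in darkness, by log2 fold changes of 1.58 to 5.53, and TrG0823W is one of them. The median over the 8 IDs was 66.8, 46.1 and 64.4 CPM in the deletion libraries and 4.66 and 3.70 CPM in the parent libraries. None of these 8 IDs was below 27.0 CPM in any deletion library. The ID at serial number 820, inside the run, was among those removed for few counts. The 3 deletion libraries, replicate 1 among them, were all high across the 8 tested IDs. Runs here and below were defined by calls from the same dark libraries, so such a separation follows in part from the choice.

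By its definition, a run ends where the neighbouring IDs were not called as rising. Serial number 815, just before it, fell (log2 fold change -0.54, edgeR adjusted p = 0.0302), and serial number 825, just after it, did not pass at a log2 fold change of -0.33. Further out, the IDs at 812 and 828 also rose (log2 fold change 1.02 and 0.72, edgeR adjusted p = 0.0208 and 0.0388). In light the median over the 8 IDs was 0.14, 0.35 and 0.31 CPM in the deletion libraries and 0.39, 0.30 and 0.39 CPM in the parent libraries, and the IDs at 819, 821 and 824 had 0 counts in all 6. The IDs at 816 and 822 stood higher in light than the other 6 of the run. The ID at 816 had 19.1, 18.1 and 17.6 CPM in the light deletion libraries and 13.5, 19.1 and 19.2 CPM in the light parent libraries, near the 11.6 and 14.2 CPM of the parent in darkness. The ID at 822 had 3.97, 4.04 and 4.67 CPM in the light deletion libraries and 12.6, 18.1 and 21.7 CPM in the light parent libraries. None of the 8 rose in light and 1, at serial number 822, fell. Of the 5 that passed the test of the difference, all had light counts to compare. All 8 passed without either parent library in darkness, 7 passed without any one of the dark deletion libraries, and 6 passed in the fit of the 5 dark libraries.

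**Figure D4:**
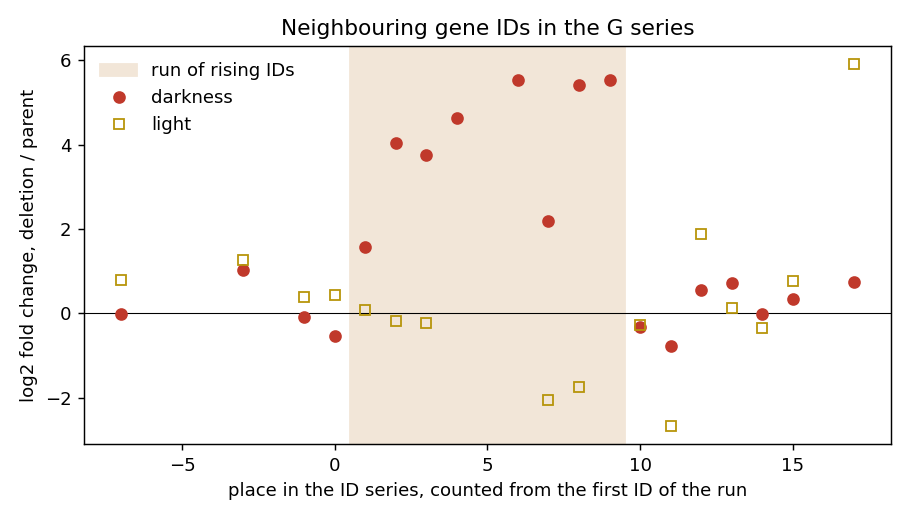
Log2 fold change of the deletion strain over the parent in darkness (red circles) and in light (open yellow squares) for tested gene IDs around the run at serial numbers 816 to 824 of the G series, shown by place counted from the first ID of the run. Inside the shaded run the dark values lie between 1.58 and 5.53, and no light value is shown for the 3 IDs at 0 counts in light.

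Other runs differed in how they behaved in light. At 602 to 605 of the B series, 4 neighbouring IDs rose in darkness by 0.99 to 3.97, and their median was 49.2, 37.1 and 52.8 CPM in the deletion libraries and 16.0 and 13.9 CPM in the parent libraries. None of the 4 rose in light and 1 fell, and the effect differed between darkness and light for 3. Only 1 of the 4 passed with the first dark parent library left out, and 2 with the second left out. At 570 to 574 of the A series, 4 of 5 IDs rose in darkness, with a median of 71.2, 47.4 and 46.5 CPM in the deletion libraries and 19.2 and 22.3 CPM in the parent libraries. Here 3 of the 4 also rose in light, where the median was 36.8, 28.7 and 28.9 CPM in the deletion libraries and 6.71, 5.46 and 4.71 CPM in the parent libraries. In the fit of the 5 dark libraries, 1 of these 4 passed.

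The deepest falling run lay at 396 to 398 of the C series, where 3 IDs fell by 4.06 to 5.65 on the log2 scale. Their median was 0.12, 1.13 and 0.91 CPM in the deletion libraries and 18.7 and 23.6 CPM in the parent libraries. In light no ID of this run exceeded 2.22 CPM in a deletion library or 0.90 CPM in a parent library. The test of the difference between darkness and light passed for 1 of the 3. With parent replicate 2 in darkness left out, 2 of the 3 IDs passed.

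Calls were spread over all 7 series, from 10.8% of tested IDs in the A and E series to 13.8% in the G series, and were alike for the end letters, with 12.6% for C and 11.8% for W. Within the series, rising IDs were more common towards the ends. Among the first and last 50 IDs of the 7 series, 523 of 700 were tested, and 77 (14.7%) rose and 20 (3.82%) fell, beside 7.25% and 4.97% of all tested IDs. The median log2 fold change was 0.45, and it was above 0 at all 14 series ends, from 0.10 to 0.87. The share that rose was 15.9% for the 25 IDs nearest an end and 6.37% for IDs more than 200 places away. The IDs at the ends had lower levels than other tested IDs, and rising IDs had lower levels than falling IDs. Whether the excess goes with place or with level was not tested.

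The shift at the series ends was seen in all 3 deletion libraries. The median of log2(CPM + 1) over the 523 IDs was 3.62, 3.64 and 3.63 in the deletion libraries and 3.13 and 3.06 in the parent libraries, while over all other tested IDs it was 5.22 to 5.24 in the deletion libraries and 5.18 to 5.23 in the parent libraries. By summed counts, deletion replicate 1 did not follow the others. The IDs at the ends held 3.33%, 7.21% and 6.77% of all counts in the deletion libraries and 3.98% and 3.35% in the parent libraries. In light the median log2 fold change of these IDs was 0.05, and 16.8% rose and 14.1% fell, beside 13.9% and 13.1% of all tested IDs. The dark median lay between 0.35 and 0.52 under every alternative tried, and the share of rising IDs was above that of all tested IDs in each. It was 23.5%, beside 9.36% of all tested IDs, when deletion replicate 1 was left out. It was 5.17%, beside 2.22%, with parent replicate 1 left out and 5.34%, beside 3.49%, with parent replicate 2 left out.

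**Figure D5:**
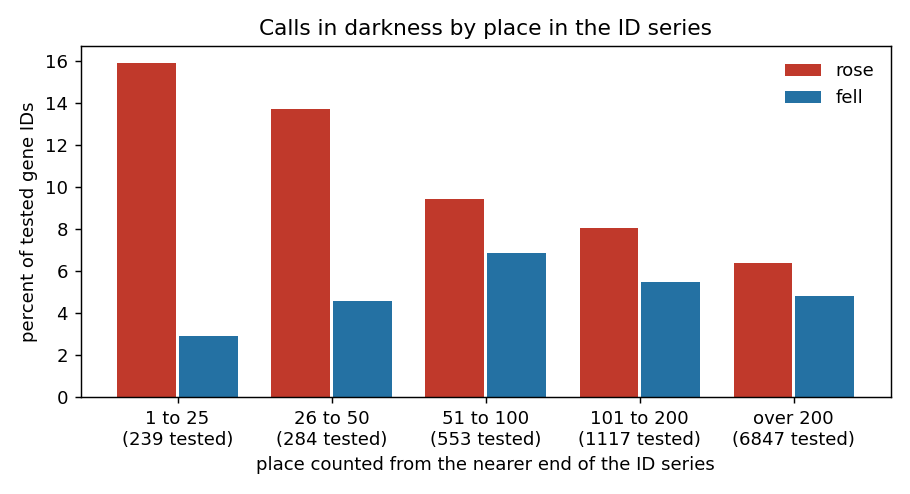
Percent of tested gene IDs that rose (red) or fell (blue) in the deletion strain in darkness, by place counted from the nearer end of the ID series. The share that rose declines from 15.9% for the 25 IDs nearest an end to 6.37% beyond 200 places.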

How the data were processed

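Strand-specific libraries were prepared from rRNA-depleted RNA of mycelium, per the labels' protocols. Reads were mapped with HISAT2 2.2.1, per the submitters' processing notes. The deposited values were raw counts per gene ID of a QM6a transcript set, whole numbers with no normalization. The settings for strand and shared reads are not stated in the labels or the file, so overlapping or near-identical genes are uncertain. None of the 10879 IDs matched the 9116 genes of the RefSeq table.

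In edgeR 4.0.16 under R 4.3.3, filterByExpr kept 9040 IDs holding at least 99.96% of each library's counts and TMM scaling was applied. A quasi-likelihood model with 1 mean for each of the 4 groups was fitted to all 11 libraries with robust estimation, which leaves 7 residual degrees of freedom. The 5 dark libraries alone leave 3. P-values were adjusted by Benjamini-Hochberg over all tested IDs at 0.05. SE is the absolute log2 fold change over the root of F. Fitted fold changes of IDs near 0 counts depend on the prior count of 0.125. Intervals are exact at 95% and cover counting error only. A floor of 3 counts is 0.179 to 0.364 CPM in a single library.

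Alternatives used DESeq2 1.42.0, limma 3.58.1 (voom, with and without library quality weights), other scalings and filters, a glmTreat test at 2-fold, a replicate block and omission of each library. Named IDs followed written rules. The first takes the 2 rising and 2 falling IDs with the largest difference in mean CPM among those called at 2-fold in both fits with ranges that do not overlap. The second takes the 2 IDs at either extreme of the difference between darkness and light, among IDs called for both with at least 5 CPM in darkness and over 3 counts in every group. IDs nearly absent from 1 strain were named because there were 5. The comparison, the runs, the serial places and the lists of IDs were chosen with earlier results of these data known.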

Additional observations from a re-analysis of the deposited data

Results flagged for a closer look

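Of the 1104 gene IDs called in darkness, 328 passed the test of the difference between darkness and light (edgeR adjusted p under 0.05). Over all tested IDs 10.8% passed. The dark libraries that selected these IDs also enter the difference. Dependence on light cannot be told apart from a difference between the dark and light sets of libraries. Among the named IDs, the log2 difference (darkness minus light) was 7.16 for TrG0823W, 6.52 for TrG0034W and 7.17 for TrD1340C, which were raised by the deletion in darkness. It was -6.87 for TrE0180C, -6.54 for TrF0255C and -1.39 for TrG0150C, which were lowered in darkness. The value for TrD1340C rests on 1 count in the dark parent libraries and depends on the prior count (edgeR adjusted p = 0.00518), and it missed the threshold with the replicate block (adjusted p = 0.0703). Those for TrE0180C and TrF0255C rest in part on 7 counts each in the light parent libraries. That for TrG0823W rests in part on 4 counts in the light deletion libraries. The groups of 2 and 3 libraries are too small for a test of single outlying libraries.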

How the results depend on the processing

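Directions did not reverse for any of the named IDs called or for the median at the series ends under the alternatives tried, but numbers of calls moved. For the strains in darkness, the 5 dark libraries alone gave 238 IDs (165 rising, 73 falling; 157 and 60 at 2-fold), DESeq2 gave 1708 (1031 and 677), and the test against a 2-fold change gave 98 (67 and 31). Leaving out 1 library gave 389 to 1426 called, 205 to 839 rising and 184 to 587 falling, with 171 to 525 and 116 to 214 at 2-fold. Without 1 dark parent library, the other is assumed to vary like the remaining groups. For the difference between darkness and light, DESeq2 gave 1532 (593 of them called in darkness) and the test against a 2-fold change gave 177 (25). Voom with quality weights gave 494 among those called in darkness, and leaving out 1 library gave 386 to 1175 in all and 101 to 460 of those called in darkness. The replicate block gave 157 IDs in darkness (97 rising, 60 falling; 92 and 51 at 2-fold) and 181 for the difference, 43 of them called in darkness. Deviations of same-numbered libraries correlated at -0.43 and -0.29 in darkness and at 0.18, -0.02 and 0.20 in light. Those of differently numbered libraries ranged from -0.44 to 0.44 in darkness and from -0.21 to 0.09 in light. With 2 dark parent libraries the deviations mirror each other, so these values cannot show whether the numbers pair the libraries. The block uses 4 more degrees of freedom. Its term for replicate 3 in darkness covers deletion replicate 3 alone and takes that library out of the dark comparison. The lower numbers from the block therefore do not measure the size of the effect. The cause of the shifts was not tested. Fits with fewer libraries hold less information on the spread, and the number of calls moved both ways when 1 library was left out. With 2 parent libraries in darkness, changes that missed the threshold may still be present.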
